A study of Mus musculus with 2 samples.

Results

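Among 60788 droplet barcodes from mouse hepatocyte preparations, 251 carried the transcripts of liver endothelial cells, and these 251 are described here. They were chosen by their measured UMI counts of 10 endothelial genes (Stab2, Clec4g, Kdr, Ptprb, Oit3, Gpr182, Fcgr2b, Pecam1, Egfl7 and Cdh5). A barcode was taken as endothelial when at most 30% of its UMIs (unique molecular identifiers, each standing for 1 captured transcript molecule) were mitochondrial, when at least 3 of the 10 genes were detected, when the 10 together made at least 0.3% of the non-mitochondrial UMIs, and when they outnumbered both the UMIs of 6 macrophage genes (C1qa, C1qb, C1qc, Clec4f, Cd5l and Vsig4) and those of 6 stromal genes (Dcn, Col1a1, Col1a2, Col3a1, Colec11 and Lum). The study compared hepatocytes of C57BL/6 mice (C57BL/6J in the study's methods), 10 to 12 weeks old on a normal diet, from undamaged liver (0 h) and from liver regrowing for 48 h after partial hepatectomy (PHx48h), an operation that takes away the larger liver lobes. Cells were freed by collagenase perfusion and their transcripts counted by droplet single-cell RNA-Seq, in 1 library from 1 preparation per time point. With 1 library per group there is no replicate error and no test, and each interval below is a 95% interval for counting error only.

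The sinusoids of the liver are lined by endothelial cells with open pores and almost no basement membrane, which let plasma reach the hepatocytes. These cells clear waste from the blood through scavenger receptors and lectins, respond to VEGF through the receptors Kdr, Flt1 and Flt4, and send signals such as Wnt2, Rspo3, Hgf and Bmp2 to their neighbours. They also differ with position, since those near the central vein are known for Wnt2, Rspo3, Kit and Thbd, and those nearer the portal vein for Efnb2, Dll4 and Ltbp4.

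The undamaged library held 217 endothelial barcodes among 59202 (0.367%, Clopper-Pearson interval 0.319 to 0.419%). The PHx48h library held 34 among 1586 (2.14%, interval 1.49 to 2.98%). The libraries were deposited to different depths, the shallowest barcode having 1183 UMIs at 0 h and 4578 UMIs at 48 h, so the shares have different denominators and are not read as a change. The endothelial barcodes had a median of 2344 non-mitochondrial UMIs (1166 to 9139) at 0 h and 5940 (4582 to 13367) at 48 h, 582536 and 232644 in all. Levels are given in CPM, the UMIs of a gene per 1000000 non-mitochondrial UMIs of the pooled barcodes, so that 1 UMI stood for 1.72 CPM at 0 h and for 4.3 CPM at 48 h. The libraries shared 148 barcode sequences, 1 of them that of a PHx48h endothelial barcode, and none was endothelial in both.

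Barcodes with under 2% mitochondrial UMIs that belonged to none of the 3 gene sets served as background, 52448 at 0 h and 513 at 48 h. Their median depth was 1413 and 5269 non-mitochondrial UMIs. They carried 20 hepatocyte-secreted transcripts such as Alb and Ttr at 175247 and 148316 CPM. The endothelial barcodes carried the same transcripts at 100926 CPM in the undamaged library and 50519 CPM at 48 h, which was 57.6% and 34.1% of background. Among the endothelial barcodes, 58 of 217 were themselves under 2% mitochondrial UMIs in the undamaged library and 1 of 34 at 48 h. In the undamaged library those 58 had 6838 CPM of 30 endothelial genes that the rule did not use (the held-out genes, described below), the other 159 had 10421 CPM, and 13.1% against 9.28% of their UMIs were hepatocyte-secreted.

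The 10 genes that chose the barcodes are given as a description. They made 7335 CPM (7117 to 7558) in the undamaged pool and 6602 CPM (6276 to 6941) in the PHx48h pool, against 22.9 and 16.2 CPM in background. An endothelial barcode held 4 to 86 of these UMIs (median 16) from 3 to 10 of the genes (median 7) in the undamaged library, and 25 to 68 (median 45.5) from 6 to 10 genes (median 9) at 48 h. Ptprb, a receptor phosphatase of vessels, was listed at 1325 CPM in undamaged and 726 CPM in PHx48h endothelial barcodes. Kdr, the main VEGF receptor, was at 1217 and 1109 CPM. Clec4g, a sinusoidal lectin, was at 1035 and 1036 CPM, and Stab2, the hyaluronan scavenger receptor, at 769 and 537 CPM. Egfl7, a secreted vessel protein, was at 499.5 and 1002 CPM. The log2 ratio of the 10 genes ran from -0.86 for Ptprb to 0.99 for Egfl7 with 10 CPM added to each level, and since the rule set a minimum of their UMIs in both libraries nothing is read from these ratios.

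In the undamaged library 28 endothelial barcodes had an endothelial share of 0.3 to 0.4%, and their held-out endothelial genes stood at 4716 CPM (4192 to 5287). A further 39 barcodes with a share of 0.2 to 0.3% lay just outside the rule, at 4115 CPM (3664 to 4606). The 6 barcodes with exactly 3 genes stood at 5054 CPM (3686 to 6763) and the 2 with only 2 genes, outside the rule, at 4385 CPM (2506 to 7121). At 48 h there was 1 barcode on each side of the share limit.

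The held-out endothelial genes were detected in every endothelial barcode. This list of 30 genes, among them Eng and Tek, receptors for TGF-beta family ligands and angiopoietins, and Erg and Sox18, vascular transcription factors, made 9661 CPM (9410 to 9917) in undamaged endothelial barcodes and 184.7 CPM in undamaged background, a 52.3-fold difference (log2 5.71). At 48 h it made 10432 CPM (10021 to 10856) against 98.2 CPM, a 106-fold difference (log2 6.73). By barcode the list ran from 663 through a median of 8617 to 22587 CPM in the undamaged library and from 5293 through 10544 to 18192 CPM at 48 h. These values lay above the 95th percentile of background (789 and 422 CPM) in 216 of 217 and in 34 of 34 barcodes. The macrophage barcodes (270 and 21, set by the mirror of the rule) carried the list at 1414 and 2150 CPM and the stromal barcodes (63 and 44) at 4795 and 5895 CPM. Plvap was higher in stromal than in endothelial barcodes in both libraries (648 and 1246 against 263 and 228 CPM). Calcrl was so at 0 h (288 against 263 CPM), and the rest of the list was higher in endothelial barcodes.

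**Figure D1:**
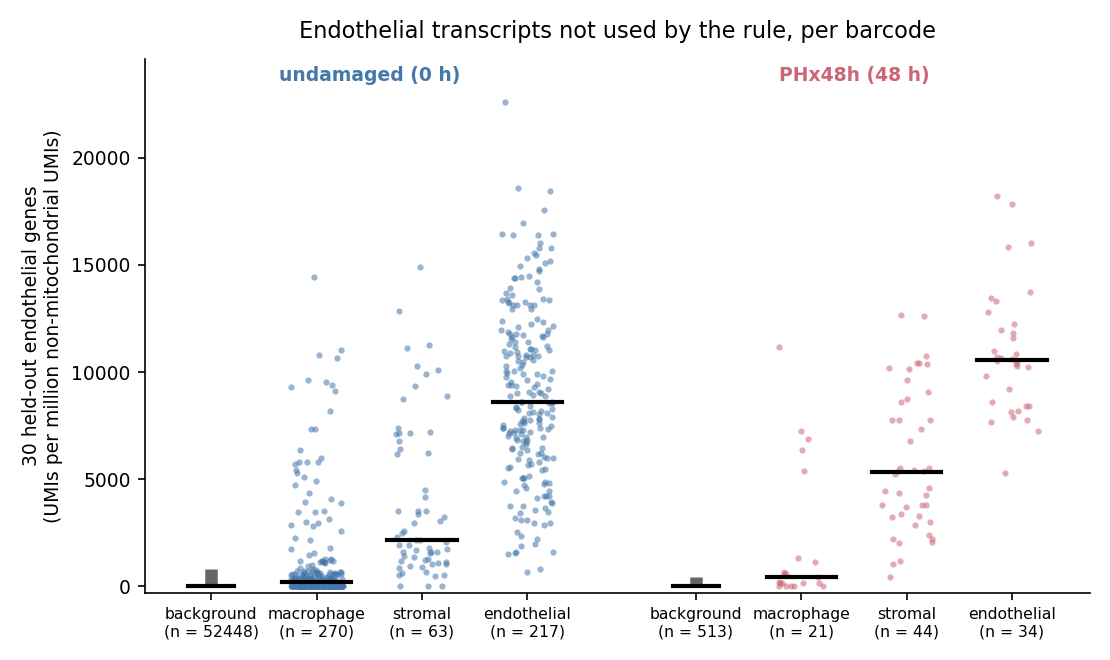
Summed level of 30 endothelial genes not used by the rule, in CPM, 1 point per barcode, with black lines at the medians and grey bars from the 5th to the 95th percentile of background barcodes. The endothelial barcodes have medians of 8617 CPM (undamaged) and 10544 CPM (PHx48h), and stromal barcodes spread up into the same range.

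Of the 30 genes, 30 at 0 h and 27 at 48 h had at least 20 UMIs, and 29 and 27 of these were at least 10-fold above background by their plain ratio. Aqp1, the water channel, was detected in 198 of 217 undamaged endothelial barcodes (0 to 23 UMIs each) and in 34 of 34 at 48 h (6 to 33 UMIs). Its level was 1819.6 CPM (1712 to 1933) and 2416 CPM (2220.1 to 2624), against 5.38 and 8.75 CPM in background, and it led the genes outside the rule in its ratio to background in both libraries. The Aqp1 gene spans bases 55336432 to 55348555 of chromosome 6, on the plus strand (GRCm38). Ehd3, an endocytic protein of sinusoidal cells, was at 1552 and 1229 CPM against 4.72 and 4.21 CPM. Eng was at 809 and 714 CPM against 2.31 and 2.92 CPM. S1pr1, a sphingosine phosphate receptor, was the gene at 0 h that was not, at 122 CPM in undamaged endothelial barcodes and 97.3 CPM in undamaged background.

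Of 4372 genes with at least 20 UMIs in undamaged endothelial barcodes, 37.5% were at least 2-fold above background, and of 2093 such genes at 48 h 44.9% were, on levels with 10 CPM added. The rule chose the barcodes by their endothelial UMIs, so these shares are a description and nothing is read from them. After Aqp1 the highest ratios to background in the undamaged library belonged to Dnase1l3, a secreted DNase, to Ehd3, and to Igfbp7, a matrix protein of vessels. Dnase1l3 was at 1619 CPM (background 4.54) and Igfbp7 at 1454 CPM (background 6). Gpihbp1, which anchors lipoprotein lipase to the vessel wall, was at 597 CPM (background 2.42) and Bmp2, a ligand that acts on hepatocyte iron sensing, at 503 CPM (background 1.27). At 48 h the same ranking brought in Tmsb4x, an actin-binding peptide (3998 CPM against 36.9 in background), Ly6a, Fabp4, and Gatm, an enzyme of creatine synthesis (619 CPM against 0.972).

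Few of these genes also stood apart from the other non-parenchymal barcodes. Of 648 genes outside the rule that were at least 4-fold above background in the undamaged library, 128 were also at least 4-fold above the macrophage barcodes, 15 above the stromal barcodes and 8 above both. At 48 h the counts were 549, 107, 14 and 9. Adam23 met all of them in both libraries, at 268 and 168 CPM in endothelial barcodes against 58.95 and 29.2 CPM in stromal barcodes. In the undamaged library Arhgef15, an exchange factor of vessels, was at 125 CPM against 19.7 CPM in stromal barcodes, and Pcdh12, a vascular protocadherin, at 90.98 against 6.55 CPM. At 48 h Fabp4 (1324 against 321 CPM), Ly6a (804 against 107 CPM) and Gimap6 (215 against 45.4 CPM) were among the 9.

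Transcripts of other liver cells were carried by many endothelial barcodes, and no doublet caller was applied to them. The 6 stromal rule genes made 1669 CPM in undamaged and 1578 CPM in PHx48h endothelial barcodes, against 14.2 and 29.8 CPM in background and 6871 and 9930 CPM in stromal barcodes. The 6 macrophage rule genes made 762 and 692 CPM, against 20.2 and 25.3 CPM in background. At least 5 stromal UMIs (of the 6 rule genes and other stromal genes such as Lrat, Pdgfrb and Tagln, with Reln and Ecm1 not counted) were found in 89 of 217 undamaged endothelial barcodes and in 20 of 34 at 48 h, and at most 1 in 88 and 12. The barcodes with at most 1 stromal UMI kept the held-out endothelial genes at 7757 CPM in the undamaged library and 11995 CPM at 48 h. Results that move with this load are given below for those barcodes too. Lists for T and NK cells, B cells, neutrophils, cholangiocytes and platelets had at most 11 UMIs each in either pool, with Cd3e, Epcam and Krt19 at 0. Their levels were 43 CPM or less. The T and NK list still had 9 UMIs at 48 h (38.7 CPM against 0.324 CPM in background). Of these 8 lay in 1 barcode, and Cd3d was at 21.5 CPM in the pool. The lymphatic list had 157 and 20 UMIs (270 and 86 CPM, against 50.2 and 44.4 CPM in background). These were of Reln (230 and 64.5 CPM) and Prox1 (39.5 and 21.5 CPM), while Pdpn, Ccl21a and Mmrn1 were at 0. The erythroid list had 34 and 5 UMIs, below its background level. The list of other macrophage markers made 1069 and 851 CPM in endothelial barcodes, against 68.3 and 52.5 CPM in background. That of other stromal markers made 2307 and 1552 CPM, against 17.3 and 20.4 CPM. Both lists were thus carried, though single genes were at 0. These were Cd68 and Adgre1 at 48 h, Acta2 at 0 h, and Mgp and Msln in both libraries.

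The next question was how the endothelial transcriptome differed 48 h after PHx. Pooled levels were compared for 5721 genes with at least 20 UMIs over both libraries together, as log2 of PHx48h over undamaged with 10 CPM added to each level, and a gene was called higher or lower from 2-fold. Of these genes 894 (15.6%) were higher and 809 (14.1%) lower at 48 h, with a median log2 ratio of 0.10. Between background barcodes of the 2 libraries the same genes gave 15.1% higher and 12.9% lower, so the counts by themselves are close to those of the background. With TMM scaling the counts were 695 higher and 940 lower, with DESeq2 scaling 728 and 910, and with the background profile subtracted 742 and 1051, so which direction was more frequent depended on the scaling. Genes are named below from 719 genes borne by the endothelial barcodes, that is with at least 20 UMIs and at least 4-fold over background in the library where they were higher. Of these 161 (22.4%) were higher and 53 (7.37%) lower. A gene enters this set through the library where it is higher, so the filter itself bears on both counts and no balance of directions is read from them. The minimum of 20 UMIs is 34.3 CPM in the undamaged pool and 86 CPM in the PHx48h pool, so the list reaches lower levels among genes that were lower at 48 h.

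**Figure D2:**
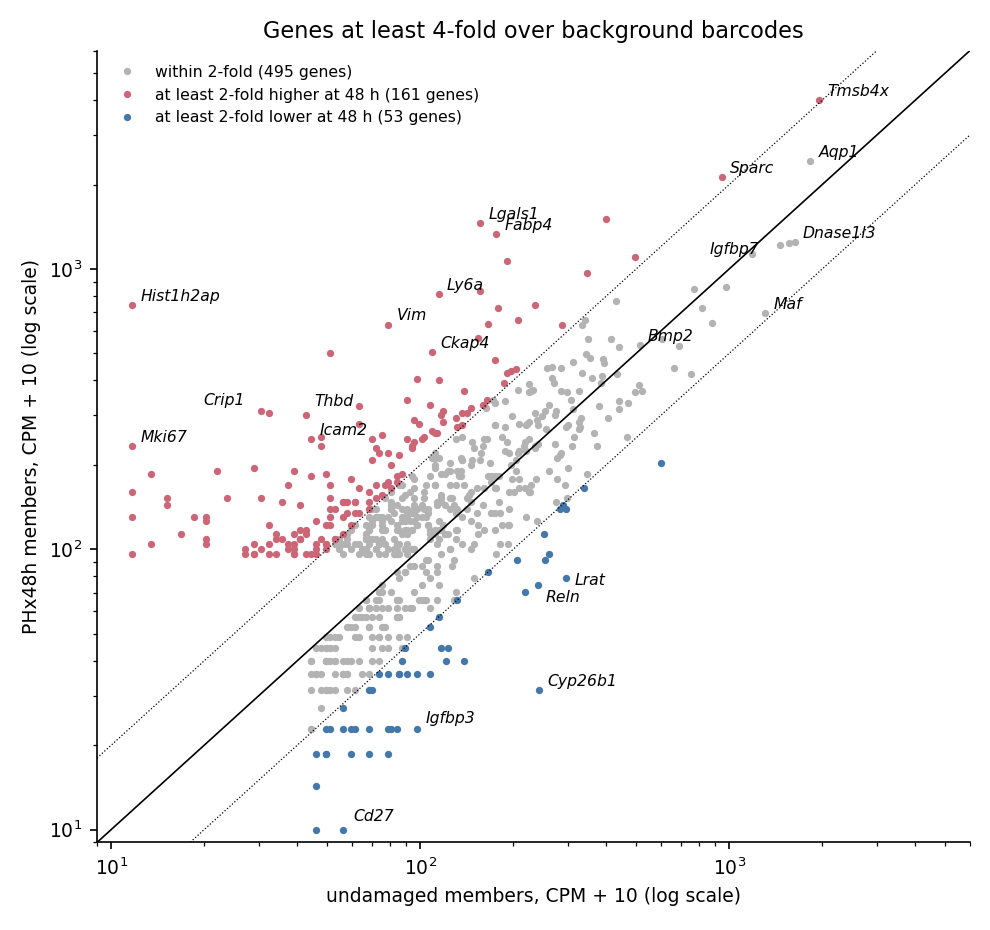
Level in pooled undamaged (x axis) and PHx48h (y axis) endothelial barcodes of genes outside the endothelial rule that were at least 4-fold over background, in CPM with 10 added, on log scales, with 1 point per gene, a solid line of equality and dotted lines at 2-fold. The 161 genes above the upper dotted line include Hist1h2ap, Mki67, Lgals1, Fabp4 and Ly6a, and the 53 below the lower line include Cyp26b1, Cd27 and Lrat.

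Of the 12 borne genes with the highest ratios, 8 act in DNA replication, chromatin packing or mitosis. Hist1h2ap, a replication-dependent histone, had 1 UMI (1.72 CPM) in the 217 undamaged endothelial barcodes and 171 UMIs (735 CPM, 629 to 854) in the 34 PHx48h barcodes, a 428-fold ratio (75.8 to 17010). Its reads may be shared with near-identical histone genes. Mki67, the proliferation antigen on chromosome 7 (bases 135689784 to 135716361, minus strand), had 1 UMI (1.72 CPM) and 52 UMIs (224 CPM, 167 to 293), a 130-fold ratio (22.4 to 5241). Top2a, the DNA topoisomerase of dividing cells, was at 22.3 CPM (11.9 to 38.2) and 297 CPM (231 to 375). Hmgb2, a chromatin protein, had 24 UMIs (41.2 CPM, 26.4 to 61.3) and 114 UMIs (490.02 CPM, 404 to 589). The mitotic genes Cenpf, Tpx2 and Prc1 had 1 to 3 UMIs at 0 h and 28 to 41 at 48 h, and 2810417H13Rik, which encodes a PCNA-binding factor, had 1 and 35 UMIs. With 1 to 3 UMIs at 0 h the size of these ratios is poorly fixed. PHx48h background carried these transcripts too, at 70.7 CPM for Hist1h2ap, 40.5 CPM for Mki67 and 44.1 CPM for Top2a.

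A list of 25 proliferation genes overlaps the genes above in Mki67, Top2a, Cenpf and Tpx2. All 19 of its genes with enough UMIs were at least 2-fold higher at 48 h (median log2 2.80), beside 15.6% and a median of 0.10 over all genes. Only 1 gene of the list had at least 20 UMIs in the undamaged pool, against 15 at 48 h. Most thus passed the minimum through the library where they were higher, so the count of 19 is a description and no support. The 19 genes also stood higher at 48 h in background (median 2.21). The summed level was 209 CPM (174 to 250) in undamaged and 3048 CPM (2827 to 3280) in PHx48h endothelial barcodes, and 46.6 and 1385 CPM in background. Macrophage and stromal barcodes reached 2951 and 2529 CPM at 48 h, from 307 and 105 CPM. By barcode the PHx48h endothelial levels ran from 539.8 through a median of 2062 to 8270.3 CPM, while 95% of PHx48h background barcodes were at or below 2957 CPM. The level was thus greater at 48 h in all 4 kinds of barcode, and the endothelial level at 48 h was 2.2 times that of background. Of the 19 genes 5 were borne. Birc5, a survivin of dividing cells, had 0 and 48 UMIs and was at least 40.1-fold higher against a floor of 3 UMIs in the undamaged pool, with 136 CPM in PHx48h background against 206 CPM in endothelial barcodes.

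Counts of barcodes were made at a common depth of 800 non-mitochondrial UMIs. At that depth 3 of 217 undamaged endothelial barcodes (1.38%, 0.286 to 3.99%) and 11 of 34 PHx48h barcodes (32.4%, 17.4 to 50.5%) held at least 3 distinct proliferation genes. In background the numbers were 1 of 52448 and 49 of 513 (9.55%, 7.15 to 12.4%). In PHx48h macrophage and stromal barcodes they were 7 of 21 and 11 of 44. The undamaged library had 1 endothelial barcode with 10 or more of the genes at full depth, against 19 of 34 at 48 h, where the median depth was greater.

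**Figure D3:**
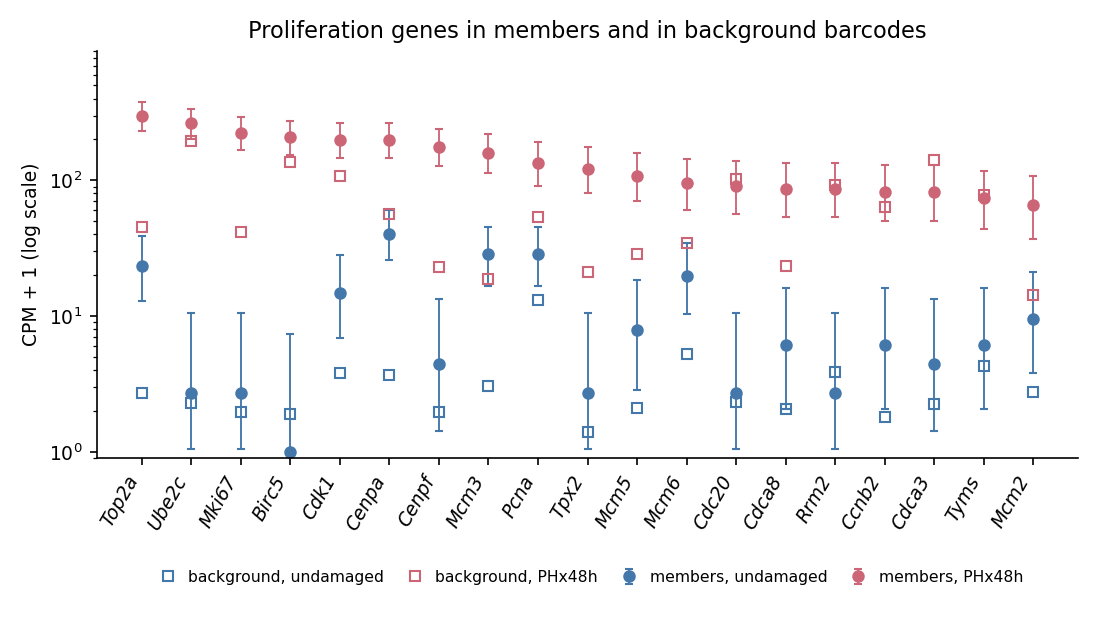
Levels of 19 proliferation genes in CPM with 1 added, on a log scale, in endothelial barcodes (filled circles with exact 95% Poisson intervals) and in background barcodes (open squares) of the undamaged and PHx48h libraries. Top2a and Mki67 lie well above PHx48h background (297 against 44.1 CPM and 224 against 40.5 CPM), while Cdc20, Rrm2 and Tyms lie on it.

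Genes known for a place near the central vein or in larger vessels formed the next group. Fabp4, a fatty acid-binding protein of capillary and venous endothelium (chromosome 3, bases 10204088 to 10208576, minus strand), had 97 UMIs (167 CPM, 135 to 203) in undamaged and 308 UMIs (1324 CPM, 1180 to 1480.3) in PHx48h endothelial barcodes. The ratio was 7.95 (6.31 to 10.1), and background was at 1.49 and 11.3 CPM. It was detected in 68 of 217 barcodes with 0 to 3 UMIs each, and in 31 of 34 with 0 to 56 UMIs each. At 800 UMIs per barcode 27 of 217 (12.4%) and 20 of 34 (58.8%, 40.7 to 75.4%) held it, against 0.0915% and 0.78% of background. Stromal barcodes carried Fabp4 at 78.6 and 321 CPM.

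Thbd, thrombomodulin, the thrombin receptor of the vessel wall (chromosome 2, bases 148404466 to 148408188, minus strand), had 19 UMIs (32.6 CPM, 19.6 to 50.9) and 68 UMIs (292 CPM, 227 to 371), a ratio of 8.96 (5.32 to 15.8), with at most 0.972 CPM in background. Ly6a, the Sca-1 antigen, had 61 UMIs (105 CPM, 80.1 to 135) and 187 UMIs (804 CPM, 693 to 928), a ratio of 7.68 (5.72 to 10.4), and counts of Ly6 genes may be shared among near-identical copies. Both were uneven among the 34 PHx48h barcodes. Ly6a ranged from 0 to 64 UMIs with a median of 2, and 3 barcodes held 50.3% of its UMIs, while 3 barcodes held 41.2% of the Thbd UMIs. Rspo3, a Wnt signal enhancer of central-vein cells, was at 75.5 and 206 CPM (ratio 2.73), with 79.2% of its PHx48h UMIs in 3 of 34 barcodes. Rspo3 was at 301 and 325 CPM in stromal barcodes, and its endothelial ratio fell under 2-fold when the share of endothelial UMIs had to be at least 0.6% (log2 0.31) or when background was subtracted (log2 0.78).

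Within the list for the central-vein side, 3 of 7 genes were higher and none lower (Rspo3, Thbd and Fabp4, median log2 0.87), beside the all-gene values of 15.6% and 0.10. The other 4 genes had ratios above 1 but under 2-fold. Kit, the stem cell factor receptor, was at 127 and 241 CPM, Ptgs1 at 149 and 224 CPM, Cdh13 at 42.9 and 77.4 CPM, and Wnt2, the Wnt ligand of central-vein cells, at 80.7 CPM (59.3 to 107) and 107 CPM (69.5 to 159). Wnt9b had 0 and 3 UMIs. Summed, the list had 675 CPM (610 to 745) and 2484 CPM (2286 to 2696), a ratio of 3.68 (3.23 to 4.2), of which Fabp4 made the greater part at 48 h. In stromal barcodes the same list stood at 648 and 980 CPM and in macrophage barcodes at 354 and 649 CPM. Ptgs1 was higher in macrophage (281 and 354 CPM) than in endothelial barcodes.

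On the portal side 2 of 6 genes were lower and 1 higher (median log2 -0.49), beside 14.1% lower and 15.6% higher over all genes. Ntn4, a netrin, had 66 UMIs (113 CPM, 87.6 to 144) and 8 UMIs (34.4 CPM, 14.8 to 67.8). Ltbp4, a TGF-beta binding matrix protein, had 159 UMIs (273 CPM, 232 to 319) and 30 UMIs (129 CPM, 87 to 184). Sox17, an arterial transcription factor, had 9 UMIs (15.4 CPM, 7.06 to 29.3) and 11 UMIs (47.3 CPM, 23.6 to 84.6), whose intervals overlap. The Ltbp4 ratio was under 2-fold as a mean over barcodes (log2 -0.93) and without the 3 deepest barcodes (log2 -0.85), and that of Sox17 with a share of endothelial UMIs of at least 0.6% (log2 0.62), with at least 2% mitochondrial UMIs (log2 0.98) or with background subtracted (log2 0.82). The Notch ligand Dll4 was at 66.9 and 43 CPM and Efnb2 at 32.6 and 21.5 CPM, within 2-fold. Msr1, a scavenger receptor, was at 82.4 and 150.4 CPM, and macrophage barcodes held it at 159 and 160 CPM. Summed, the portal list stood at 244 and 236 CPM in macrophage barcodes and at 249 and 221 CPM in stromal barcodes.

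Of the UMIs of both position lists together, portal side genes made 47.1% (350 portal and 393 central UMIs, 43.5 to 50.8%) in undamaged and 15.5% (106 portal and 578 central UMIs, 12.9 to 18.4%) in PHx48h endothelial barcodes. Without Fabp4 the shares were 54.2% (50.2 to 58.1%) and 28.2% (23.7 to 33%), and without Fabp4 and Thbd 55.8% (51.8 to 59.8%) and 34.4% (29.1 to 40%). In the PHx48h library 1 barcode, also the deepest, held 99 central side UMIs, 56 of them Fabp4, and without it the share was 18%. By barcode, central side UMIs outnumbered portal side UMIs in 95 of 217 undamaged (43.8%) and 28 of 34 PHx48h barcodes (82.4%, 65.5 to 93.2%), and portal side UMIs outnumbered central ones in 83 (38.2%) and 4 (11.8%, 3.3 to 27.5%). At 800 UMIs per barcode 33.2% (27 to 39.9%) and 82.4% (65.5 to 93.2%) held a central side UMI, and 26.7% (21 to 33.1%) and 38.2% (22.2 to 56.4%) a portal side UMI. Among barcodes with at most 1 stromal UMI Fabp4 stood at 161 CPM in the undamaged library and 1509 CPM at 48 h, and Thbd at 5.54 and 226 CPM. The undamaged Thbd value there rested on very few UMIs, so the size of its ratio is poorly fixed. Macrophage barcodes held 178 portal and 258 central UMIs at 0 h, and 28 and 77 at 48 h. Stromal barcodes held 38 and 99 at 0 h, and 68 and 302 at 48 h. The portal part was thus smaller at 48 h in these barcodes too, and is not particular to endothelial ones.

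**Figure D4:**
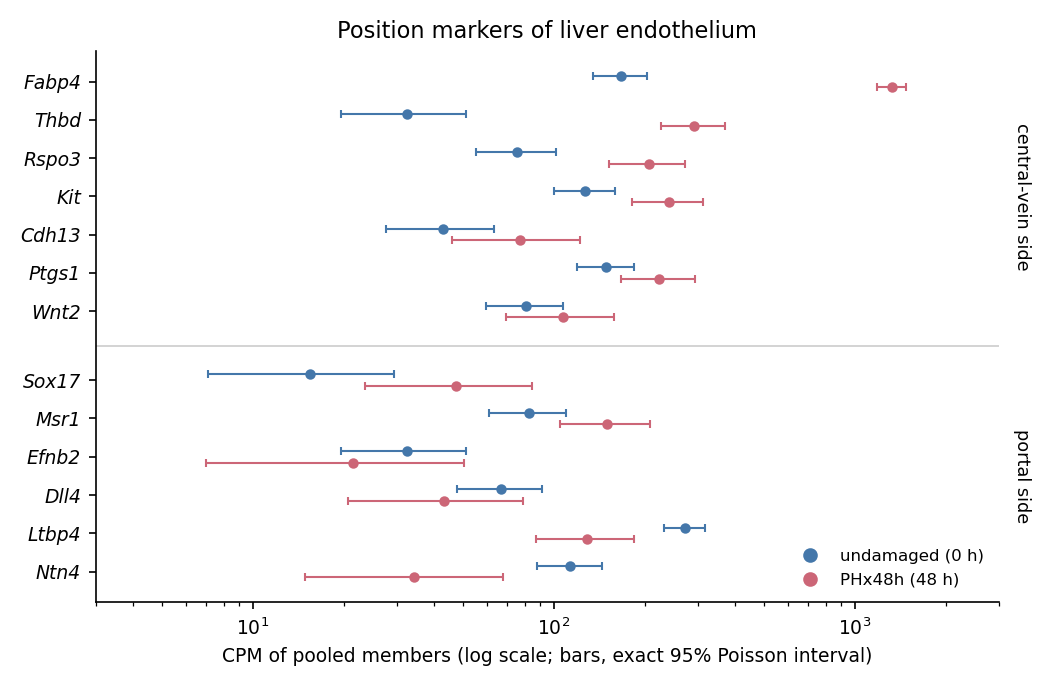
Levels of 7 central-vein side and 6 portal side genes in pooled undamaged and PHx48h endothelial barcodes, in CPM on a log scale, with exact 95% Poisson intervals. The intervals of Fabp4, Thbd, Rspo3 and Kit lie apart with PHx48h higher, those of Ltbp4 and Ntn4 lie apart with PHx48h lower, and those of Wnt2, Cdh13, Efnb2 and Dll4 overlap.

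Lgals1, Crip1, Tagln and Armcx4 were the other 4 of the 12 borne genes with the highest ratios. Lgals1, a galectin, had 85 UMIs (146 CPM, 117 to 180.4) and 337 UMIs (1449 CPM, 1298 to 1612), a ratio of 9.93 (7.8 to 12.7), and was detected in 60 of 217 and 33 of 34 barcodes. PHx48h background held it at 123 CPM and PHx48h stromal barcodes at 2159 CPM. Vim, vimentin, an intermediate filament protein, was at 68.7 and 623 CPM, and it stood at 38.8 and 649 CPM in barcodes with at most 1 stromal UMI. Crip1, a LIM protein, had 12 UMIs (20.6 CPM) and 70 UMIs (301 CPM). It was higher in macrophage (248 and 675 CPM) and in stromal barcodes (65.5 and 415 CPM). Tagln, an actin-binding protein of contractile cells, had 7 UMIs (12 CPM) and 42 UMIs (181 CPM), with 32.8 and 266 CPM in stromal barcodes. Armcx4 had 3 UMIs (5.15 CPM) and 31 UMIs (133 CPM, 90.5 to 189), a ratio of 25.9 (8.07 to 132), with under 1 CPM in background. Ckap4, a membrane protein of the endoplasmic reticulum, was at 99.6 and 494 CPM.

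The borne gene with the lowest ratio, Cyp26b1, the enzyme that degrades retinoic acid (chromosome 6, bases 84571414 to 84593908, minus strand), had 135 UMIs (232 CPM, 194 to 274) in 75 of 217 undamaged barcodes and 5 UMIs (21.5 CPM, 6.98 to 50.2) in 5 of 34 PHx48h barcodes, with at most 0.816 CPM in background. The log2 ratio was -2.94, and stromal barcodes held 85.2 and 22.7 CPM. Lrat, which stores retinol as esters in stellate cells, was at 287 and 68.8 CPM, with 629 and 247 CPM in stromal barcodes. Reln was at 230 and 64.5 CPM and Ecm1 at 592 and 193 CPM, both of them also higher in stromal than in endothelial barcodes. Among barcodes with at most 1 stromal UMI Cyp26b1 was still at 149 CPM in the undamaged library against 30.2 CPM at 48 h, and Ecm1 at 55.4 against 15.1 CPM. The PHx48h values rested on 12 barcodes and very few UMIs. The Reln ratio was exactly 1 in these barcodes (log2 0.00). Such a value arises when neither pool holds a UMI of the gene, so it shows no equality of levels. Lrat is itself one of the stromal genes counted there, and in the 80 and 9 barcodes without any macrophage or stromal rule UMI its log2 ratio was -1.55. The part of stromal RNA in these differences was not tested.

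Cd27, a TNF receptor family member (chromosome 6, bases 125232622 to 125237010, minus strand), had 27 UMIs (46.3 CPM, 30.5 to 67.4) in 22 of 217 undamaged barcodes and 0 UMIs in 34 PHx48h barcodes. Against a floor of 3 UMIs in the PHx48h pool (12.9 CPM) it was at least 3.59-fold lower. Slfn5, a Schlafen family gene, had 21 and 0 UMIs and was at least 2.8-fold lower by the same floor. Igfbp3, a carrier of insulin-like growth factors, had 51 UMIs (87.5 CPM) and 3 UMIs (12.9 CPM), a ratio of 0.147 (0.0294 to 0.455). Rnd3, a small GTP-binding protein, had 41 and 3 UMIs, and C5ar2, a complement receptor, 40 and 3. Angptl6, a secreted angiopoietin-like protein, had 75 and 7 UMIs, and stromal barcodes held it at 386 and 389.5 CPM, above the endothelial 129 and 30.1 CPM. Igfbp3 was at 308 CPM in undamaged stromal barcodes. Its log2 ratio was 0.00 among barcodes with at most 1 stromal UMI, which arises when neither pool holds a UMI of it.

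Of 9 antigen presentation genes 5 were lower and none higher, beside 14.1% lower over all genes (median log2 -1.60, background median -0.72). H2-Eb1, H2-Aa, H2-Ab1 and Cd74 belong to MHC class II. H2-Eb1 had 40 UMIs (68.7 CPM) and 2 UMIs (8.6 CPM), and H2-Aa 34 UMIs (58.4 CPM) and 2 UMIs (8.6 CPM). H2-Ab1 had 23 UMIs and 1 UMI. Cd74 had 65 UMIs (112 CPM, 86.1 to 142) in 31 of 217 barcodes and 7 UMIs (30.1 CPM, 12.1 to 62) in 3 of 34. The levels moved with macrophage transcripts, since macrophage barcodes held Cd74 at 1890.1 and 498 CPM, and undamaged endothelial barcodes without a macrophage UMI held it at 13.7 CPM against 453 CPM in those with at least 5. In the 80 and 9 barcodes without a macrophage or stromal rule UMI the log2 ratio was -0.68 for H2-Ab1, under 2-fold. For H2-Aa and H2-Eb1 it was 0.00 there. That value arises when neither pool holds a UMI of the gene, so it shows no equality of levels. With at most 1 stromal UMI, a filter that leaves macrophage UMIs in, the log2 ratio of Cd74 was -0.28. In barcodes without a macrophage rule UMI, 153 at 0 h and 13 at 48 h, Cd74 stood at 13.7 and 0 CPM. H2-K1, the class I heavy chain, was at 3248 and 1019 CPM against 3729 and 440 CPM in background, so its endothelial level was below background in the undamaged library.

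Of 13 scavenger and lectin genes, by which sinusoidal cells are known, none was at least 2-fold higher and 2 were lower, a share near the 14.1% over all genes (median log2 -0.39, beside 0.10). Summed, the list made 5800.5 CPM (5607 to 5999) and 3929 CPM (3678 to 4192), a ratio of 0.677 (0.629 to 0.729), and in background 2961 and 1186 CPM. Macrophage barcodes carried it at 3756 and 2479 CPM and stromal barcodes at 3983 and 2525 CPM, so the list is not particular to endothelial barcodes. Stab1 was at 460 CPM (407 to 519) and 322 CPM (254 to 404) and Mrc1, the mannose receptor, at 654 CPM (590.004 to 723) and 434 CPM (354 to 528). In macrophage barcodes Stab1 was at 93.3 and 75.9 CPM and Mrc1 at 475 and 422 CPM. Lyve1, a hyaluronan receptor, was at 129 CPM (101 to 161) and 159 CPM (112 to 219). The 2 lower genes were Lrp1 (288 and 81.7 CPM) and the protease gene Ctsl (1373 and 559 CPM), and both were as high or higher in undamaged background (309 and 1552 CPM), where they were also lower at 48 h (55.4 and 394 CPM). With background subtracted the Ctsl ratio was under 2-fold (log2 -0.80).

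Of 12 ligands, receptors and targets of VEGF, angiopoietin and Notch signalling 11 stayed within 2-fold and 1 was lower, beside 14.1% lower over all genes (median log2 -0.14). Flt1 was at 276 and 357 CPM, Flt4 at 239 and 288 CPM, Tek at 230.03 and 228 CPM, Notch1 at 106 and 146 CPM and Robo4, a guidance receptor of vessels, at 209 and 120.4 CPM. The gene past 2-fold was the ligand Vegfa, with 19 and 2 UMIs, at 32.6 CPM in endothelial barcodes against 65.5 CPM in undamaged background. Angpt2 had 6 and 0 UMIs, and Apln, Aplnr and Pgf had 0 in both. Among barcodes with at most 1 stromal UMI the median of the list was 0.62, so no direction is read from it.

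Of 10 angiocrine genes, those for signals that vessels send to the parenchyma, 1 was higher (Rspo3) and 4 were lower, beside 15.6% and 14.1% over all genes (median log2 -0.17, and 0.90 among barcodes with at most 1 stromal UMI, where Hgf is one of the genes counted as stromal). Bmp2 was at 503 CPM (447 to 564) and 524 CPM (435 to 626), Hgf, the hepatocyte growth factor, at 80.7 and 94.6 CPM, and Tgfb1 at 84.1 and 172 CPM. The lower genes were Cxcl12 (575 and 254 CPM), Ctgf (23 and 3 UMIs), Lama4 (27 and 3 UMIs) and Igf1 (815 and 374 CPM), the last below its background level of 1372 CPM in undamaged and 1159 CPM in PHx48h barcodes. Stromal barcodes held Cxcl12 at 1454 and 896 CPM, above the endothelial level in both libraries, and the part of stromal RNA in its ratio was not tested. Il6 had 0 UMIs in both endothelial pools.

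The next lists had few genes past 2-fold, and their counts are to be read beside the 15.6% higher and 14.1% lower over all genes. Of the 30 held-out endothelial genes 4 were higher, a share near that of all genes, and none lower (median log2 0.07). These were Icam2, an adhesion molecule (34.3 CPM, 21 to 53, and 236 CPM, 178 to 308), Ecscr (41.2 and 159 CPM), Ramp2, a receptor partner for adrenomedullin (165 and 464 CPM), and Rasip1, a Ras-interacting protein (99.6 and 254 CPM). Of 16 endothelial transcription factors Bcl6b was higher (17 and 20 UMIs, 29.2 and 86 CPM) and Hhex lower (132 and 60.2 CPM, below or near background). Of 8 genes of the BMP and TGF-beta response Id1, a target of BMP signalling, was higher (46.3 and 198 CPM), and background Id1 was at 1.49 and 48.6 CPM. Of 6 coagulation and vasoactive genes Thbd and Nos3, the endothelial nitric oxide synthase (13 and 22 UMIs, 22.3 and 94.6 CPM), were higher, and F8, the coagulation factor made by these cells, was at 228 and 116 CPM. Of 9 adhesion and cytokine response genes Vcam1, a leukocyte adhesion molecule, was higher (14 and 23 UMIs, 24.03 and 98.9 CPM). Macrophage barcodes held Vcam1 at 115 and 92.8 CPM and stromal barcodes at 39.3 and 107 CPM.

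Of 10 caveolar and endocytic genes 2 were higher and 1 lower. Sdpr, a cavin, was at 278 and 619 CPM and Ptrf, the main caveolar coat protein, at 61.8 and 159 CPM, both called higher, while the lysosomal gene Lamp2 (1063 and 383 CPM) was lower with its background (1183 and 279 CPM). Of 16 basement membrane and matrix genes Sparc (934 CPM, 857 to 1016, and 2115 CPM, 1932 to 2310.2) and Col4a2 (180.2 and 417 CPM) were higher, and Lama4, Igfbp3 and Fn1 lower, shares near the 15.6% and 14.1% over all genes. Fn1, fibronectin, was at 671 and 163 CPM against 1125 and 256 CPM in background. Sparc was at 3402 CPM and Col4a2 at 425 CPM in PHx48h stromal barcodes. With the background profile subtracted Sparc, Col4a2, Sdpr, Ptrf, Ramp2 and Bcl6b fell under 2-fold (log2 0.54, 0.58, 0.51, 0.69, 0.84 and 0.84).

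**Figure D5:**
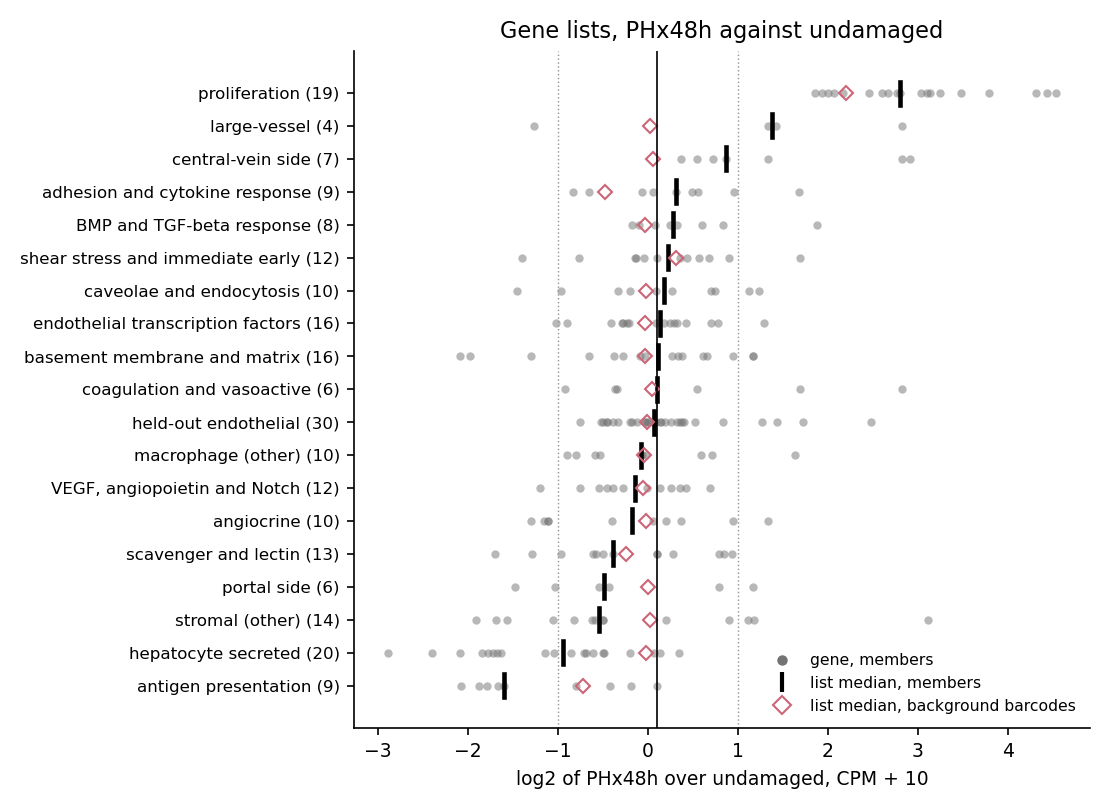
Log2 ratio of PHx48h over undamaged endothelial barcodes, with 10 CPM added, for the genes of 19 lists (grey points), the median of each list (black bars) and the median of the same genes in background barcodes (open diamonds), with the number of genes in parentheses, a solid line at the all-gene median of 0.10 and dotted lines at 2-fold. Proliferation genes lie to the right in endothelial (2.80) and background barcodes (2.21), and the antigen presentation median is the lowest (-1.60).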

How the data were processed

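Droplet single-cell RNA-Seq (10x Genomics 3′ v2) of 2 hepatocyte preparations was analysed, 1 library per group, and samples were grouped by the time point in their labels. The authors deposited raw UMI counts per gene and barcode for 27998 genes, made with Cell Ranger, whose version is not given in the sources used here, and the submitters' processing notes name mm10. Counts were not normalized. Endothelial, macrophage, stromal and background barcodes were set by fixed gene rules with no clustering and no doublet caller, the macrophage and stromal sets by the same limits with the gene sets exchanged. The authors' own filters on mitochondrial content and doublets were not applied. The members and gene lists were chosen with earlier results of these data known. Levels are pooled UMIs per 1000000 non-mitochondrial UMIs (CPM), 13 mitochondrial genes being left out. Named genes were those of the rule, those of the held-out endothelial and scavenger lists with at least 20 UMIs in a library, the 12 highest and 12 lowest borne genes, the 12 highest over background in each library, list genes past 2-fold and the 1 to 3 genes of each list with the most UMIs. Other genes named, such as Adam23, Kit, Wnt2 and Vim, were picked after their values were seen. Of the 12 lowest borne genes 1 is not reported here. Levels carry exact Poisson intervals, shares Clopper-Pearson intervals and ratios exact conditional intervals, all at 95% and for counting error only. Barcodes were thinned without replacement to 800 non-mitochondrial UMIs where their shares were compared. Gene positions came from GENCODE M21 (GRCm38) through Ensembl identifiers, with an entry for 5832 of 5834 genes. Of 379 listed genes 4 had no entry in the files. Alternatives changed the mitochondrial limit (20 and 50%), the endothelial share (0.6%), the gene minimum (5), the UMI minimum (none and 60), the added CPM (1), the scaling (edgeR 4.0.16 TMM and DESeq2 1.42.0), the pooling, the subtraction of the background profile and the carried macrophage or stromal UMIs. The scripts used Python 3.11.15 and scipy 1.17.1 and were tested on simulated data.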

Additional observations from a re-analysis of the deposited data

How the results depend on the processing

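No paired analysis was possible because each time point had 1 library and no replicate numbers, and leaving out a replicate was likewise impossible. Of 560 single-gene ratios (35 genes), 555 kept their sign, 530 also kept at least 2-fold and 0 reversed. These 35 genes were picked as past 2-fold in the same data, so that they mostly stayed so is no support for them. Of genes within 2-fold, Aqp1 ran from log2 -0.23 to 0.88 and Bmp2 from -0.57 to 0.74 over the alternatives. The other values that moved beyond their counting interval, or counts beyond 1.5 times, were as follows, and the cause was not tested. With at most 1 stromal UMI (a choice made after seeing the data) 88 and 12 barcodes were left, with 516 genes higher and 452 lower, a VEGF list median of 0.62, an angiocrine median of 0.90, a scavenger median of -0.13, held-out log2 ratios over background of 5.39 and 6.93, hepatocyte levels of 73.9% and 41.3% of background, a portal share at 48 h of 9.22% and a proliferation level of 3349.5 CPM. With no macrophage or stromal rule UMI the values were 80 and 9 barcodes, 465 and 453 genes, a held-out ratio of 5.402 (0 h), hepatocyte levels of 73.3% and 37.6%, portal shares of 53% and 11.5%, and 3844 CPM. With a share of at least 0.6% they were 128 and 21 barcodes, 5.91 (held-out, 0 h), 50.2% and 31.4% (hepatocyte) and 2431 CPM (proliferation). Background subtraction gave held-out ratios of 6.93 and 7.33 and 3907 CPM. No UMI minimum gave 1468 higher and 1219 lower genes, and a minimum of 60 gave 456 and 429. With at least 2% mitochondrial UMIs the held-out ratio at 48 h was 6.54 and the hepatocyte levels 53% and 33.1%. With 5 distinct genes the 0 h values were 5.76 and 55.5%. Means of single-barcode levels gave 5.61 (held-out, 0 h) and hepatocyte levels of 62.5% and 34.95%. The rule at 800 UMIs gave 56.8% (hepatocyte, 0 h) and 2817 CPM, and a mitochondrial limit of 20% gave 56.9%. Without the 3 deepest barcodes (also chosen after seeing the data) the values were 58.4% and 35.1%, a portal share at 48 h of 18.6% and 2807 CPM. Without Fabp4 the portal shares were 54.2% and 28.2%. Depth limits single genes most at 48 h, where 34 barcodes held 232644 UMIs.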

Other observations

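The counts of list genes in this section are to be read beside the 15.6% higher and 14.1% lower over all genes. Of 12 shear stress and immediate early genes, Nos3 was higher and Junb, a component of the AP-1 transcription factor, lower (36 and 4 UMIs, 61.8 and 17.2 CPM, with 11.4 and 18.1 CPM in background). Klf2, the transcription factor that endothelium induces under flow, was at 221 and 361 CPM, within 2-fold. Of 14 large-vessel genes only 4 had enough UMIs, of which Ly6a, Cd9 and Rspo3 were higher and Clu was lower. Cd9, a tetraspanin, was at 53.2 and 159 CPM against 15.4 and 46.7 CPM in background, and Clu, clusterin, at 1485 and 610 CPM against 2450 and 1336 CPM. Vwf, the von Willebrand factor of large vessels, had 1 and 4 UMIs.

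The transcription factors with the most UMIs kept their order. Maf, which takes part in sinusoidal identity, was at 1293 and 688 CPM, Epas1, a hypoxia-inducible factor, at 369 and 314 CPM, and Tcf4 at 319 and 262 CPM. Of the other stromal genes Des, Tagln and Nes were higher and Lrat, Reln, Ecm1 and Hand2 lower in endothelial barcodes. Of the other macrophage markers Marco was higher (9 and 16 UMIs). Of the rule genes of these cells Vsig4 (71 and 13 UMIs) and Colec11 (167 and 30 UMIs) were lower. Of 20 hepatocyte-secreted genes 10 were lower and none higher (median log2 -0.94, background median -0.02). The endothelial barcodes carried that list at 57.6% of background at 0 h and 34.1% at 48 h. The erythroid gene Alas2 was lower (32 and 4 UMIs).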
